A study of Mus musculus with 2 samples.

Results

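The CXC chemokines are small secreted proteins that steer leukocytes, and 9 of their genes are described here in mouse bone marrow stromal cells after whole-body irradiation: Cxcl1, Cxcl2, Cxcl5, Cxcl9, Cxcl10, Cxcl11, Cxcl13, Cxcl14 and Cxcl16. They were picked by name from the 16390 genes named on the array, since Cxcl2 had the highest ratio of any gene at day 1 and Cxcl13 at day 3, so these 2 values describe the choice. Bone marrow stromal cells of C57BL/6 mice were examined 1 day and 3 days after total body irradiation with 9.5 Gy, and unirradiated stromal cells of the same strain served as the control. Each time point was measured on 1 array with 2 dye channels, irradiated RNA in Cy3 against unirradiated RNA in Cy5. No dye-swapped array was used here. An effect of the dyes on a gene could therefore repeat on both arrays and cannot be told apart from irradiation. The series description names 6 mice and does not give their division between groups or any pooling. The method by which stroma was parted from the rest of the marrow is likewise not given. Of the 9 genes, 8 had a ratio, and these 8 had one on both arrays. Cxcl5 had a probe with an empty entry on each array.

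CXC chemokines carry a pair of cysteines with 1 residue between them near the mature N-terminus and bind G protein-coupled receptors. Members with the tripeptide Glu-Leu-Arg ahead of that pair, such as Cxcl1, Cxcl2 and Cxcl5, act on Cxcr2 and draw neutrophils out of marrow and into tissue. Cxcl9, Cxcl10 and Cxcl11 are induced by interferons and act on Cxcr3 of activated T cells and NK cells. Cxcl13 acts on Cxcr5 and guides B cells into follicles, and stromal cells and some myeloid cells make it. Cxcl14 is made constitutively by many epithelia and stromal cells, and Cxcl16 is made as a membrane-bound protein that acts on Cxcr6.

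In the RefSeq gene table (GRCm38.p6), Cxcl5, Ppbp, Pf4, Cxcl3, Cxcl15, Cxcl1 and Cxcl2 follow each other on chromosome 5 with 0 protein-coding genes between neighbours. Cxcl9, Cxcl10 and Cxcl11 form a second group on that chromosome, with 16 protein-coding genes between Cxcl2 and Cxcl9, and another 41 lie between Cxcl10 and Cxcl13. Cxcl14 is on chromosome 13 and Cxcl16 on chromosome 11. That table lists Cxcl11 of C57BL/6J as a transcribed pseudogene, so its probe reports a transcript. A promoter window, 250 bases before to 50 after the gene's start, was held for 6 of the 9 genes, namely Cxcl1, Cxcl2, Cxcl9, Cxcl10, Cxcl13 and Cxcl14. Parts of 4 windows are shown because the results turn on these genes: Cxcl1 and Cxcl2 are neighbours with similar promoters, Cxcl10 stands for the interferon-induced group, and Cxcl13 had the highest day 3 ratio. Each is written 5′ to 3′ on the gene's own strand, from RefSeq sequence of GRCm38.p6. The stretches are chr5:90891145-90891244 (plus strand) for Cxcl1, chr5:90903799-90903898 (plus strand) for Cxcl2, chr5:92349010-92349109 (minus strand) for Cxcl10 and chr5:95956839-95956938 (plus strand) for Cxcl13. Capitals mark matches on either strand to GGGNNTTTC (like sites of NF-kB, the factor through which IL-1 and TNF act), GAAANNGAA (like an interferon response element) and the TATA box TATAAA.
Cxcl1: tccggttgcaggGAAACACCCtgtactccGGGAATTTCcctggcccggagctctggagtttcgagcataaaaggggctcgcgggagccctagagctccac
Cxcl2: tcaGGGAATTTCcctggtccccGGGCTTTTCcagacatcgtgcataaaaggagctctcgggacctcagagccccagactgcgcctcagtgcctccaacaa
Cxcl10: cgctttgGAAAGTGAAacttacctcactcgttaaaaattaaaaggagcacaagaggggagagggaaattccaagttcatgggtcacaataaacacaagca
Cxcl13: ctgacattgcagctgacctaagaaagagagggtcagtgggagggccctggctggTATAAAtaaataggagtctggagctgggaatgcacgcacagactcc

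The letters GGGAATTTC stood 71 to 63 bases before the start of Cxcl1 and 97 to 89 bases before that of Cxcl2, and each of these windows held a second match to GGGNNTTTC. That motif was matched in 3 of the 6 member windows (Cxcl1, Cxcl2 and Cxcl9) and in 4.36% of all 32851 windows. A looser kB-like motif was left out after matches were seen, so a window without a match may still hold other kB-like letters. The letters gggaaattcc in the Cxcl10 stretch and gggagggccc in the Cxcl13 stretch are similar, were not counted and are unmarked. GAAANNGAA was matched in Cxcl9, Cxcl10 (213 to 205 bases before the start) and Cxcl14, against 8.56% of all windows. TATAAA was matched in Cxcl13 (46 to 41 bases before the start) and in Cxcl9 (195 to 190 bases before it), against 13.6% of all windows. The similar letters cataaa in the Cxcl1 and Cxcl2 stretches were not a match and are unmarked. The AP-1-like TGANTCA, which is not marked, was matched in Cxcl9 and Cxcl10 (7.81% of all windows). No overlap between different motifs was present in the stretches shown. These matches describe letters and were not tied to binding.

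The numerator of the deposited ratio is absent from the labels, and channel and title order by themselves would put unirradiated RNA on top. Positive values are read here as higher in irradiated RNA, which is likely and not established. The basis is the p53 targets, which radiation is known to induce. Their median log2 ratio was 1.54 at day 1 (21 genes) and 1.27 at day 3 (22 genes). Mitotic genes had lower medians, 0.88 (22 genes) and -2.97 (18 genes). At day 1, however, 10 of the 22 mitotic genes had a log2 ratio of at least 1 and 0 were at -1 or below. Mitotic genes alone would thus not give this direction at day 1, where it rests on the p53 targets. With the sign turned, every "higher" below becomes "lower". Values are log2 ratios, with base 2 assumed for folds, after the median over genes of each array was set to 0. With 1 array per time point no value has a replicate error and no test was possible. The only measured spread is that between different probes of 1 gene, a pooled SD of 0.76 at day 1 (85 genes) and 0.58 at day 3 (116 genes). It leaves out mice, preparations and hybridisations. It is the spread of 1 probe value, and a difference between 2 genes would have a larger spread. Signal over background and depth are unknown because no intensities were used here.

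In the counts below, higher and lower mean a difference of 2-fold or more, a log2 ratio of at least 1 in size. Of the 8 measured CXC genes, 3 were higher at day 1 (Cxcl2, Cxcl13 and Cxcl9) and 0 lower, where 19.6% of all 10434 measured genes were higher and 11.1% lower. At day 3, higher genes numbered 5 of 8 (Cxcl13, Cxcl9, Cxcl2, Cxcl10 and Cxcl14) and 0 lower, where 7.35% of 11404 genes were higher and 6.85% lower. At 4-fold, 1 member was higher at day 1 (Cxcl2), where 7.7% of all genes were, and 1 at day 3 (Cxcl13), where 0.824% were. The genes were chosen with these contrasts in view, so the counts are a description. The 4-fold counts follow largely from the choice of Cxcl2 and Cxcl13. The median over the 8 genes was 0.64 at day 1 and 1.15 at day 3, with the median of all genes at 0 by construction. These shares of all genes are also the background for the list counts that follow with the gene median at 0. Ribosomal protein genes at 0, another way to set the zero, raised every ratio by 0.48 at day 1 and 0.55 at day 3. With that zero, 4 of the 8 CXC genes were higher at day 1 and 6 at day 3, and 0 were lower. List counts that it changed are given beside the others or under the dependence on processing. The background for these counts is different. At day 1, 31% of all genes were higher and 3.91% lower, and at day 3, 23.4% higher and 2.39% lower. The members' values ran between -0.21 and 9.32 at day 1 and between 0.13 and 5.07 at day 3.

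**Figure D1:**
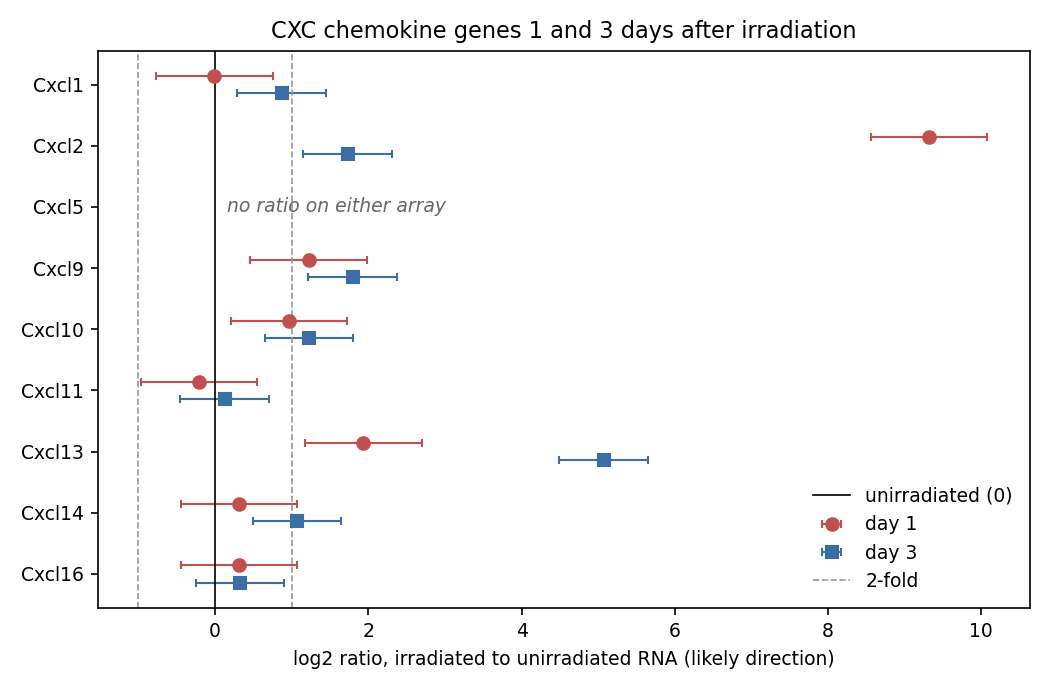
Log2 ratio (irradiated to unirradiated RNA, horizontal axis) of each CXC gene on the day 1 array (circles) and the day 3 array (squares), with the unirradiated level at 0 and dashed lines at 2-fold. Bars are the pooled SD between probes of a gene on that array (0.76 and 0.58), not a replicate error; Cxcl2 at day 1 (9.32) and Cxcl13 at day 3 (5.07) stand far from the other members.

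Among the neutrophil attractants, Cxcl2 and Cxcl1 went apart at day 1. Cxcl2, which neutrophils and macrophages make as well as respond to, stood at 9.32 at day 1 (639-fold, rank 1 of 10434 genes) and at 1.73 at day 3 (3.32-fold, rank 177 of 11404). Cxcl1, the neighbouring gene with the same GGGAATTTC in its promoter window, stood at -0.01 at day 1 (rank 5259, the 49.6th percentile, and above 0 under 3 other centrings) and at 0.87 at day 3 (the 90.4th percentile). Cxcl1 minus Cxcl2 was therefore -9.33 at day 1 and -0.86 at day 3. The probe spreads were 0.76 and 0.58 for 1 value, and would be larger for a difference. Cxcl3, the third close relative in the same cluster, which has GGGAATTTC in its window too, was at -0.04 at day 1 and 0.11 at day 3. Of these 3 similar transcripts, 1 had a high ratio at day 1 and the other two lay within 0.04 of the median gene. Hybridisation between them was not assessed because probe sequences were not used here, and each value rests on 1 probe. The gene ranked next below Cxcl2 at day 1 was Slfn4 (9.04), a Schlafen family gene of myeloid cells, followed by Chil3 (8.28) and Cd53 (8.17).

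Neutrophil markers moved on the same array. At day 1, all 15 measured neutrophil genes were higher, between 4.07 (Lcn2) and 7.97 (Csf3r), with a median of 5.89. That list includes Cxcr2, which is also counted among the receptors below, and Mmp8. Of 12 macrophage and monocyte genes, 9 were higher at day 1 and 0 lower, with a median of 3.86, the highest being the chemokine receptor Ccr2 (6.17) and the lowest Vcam1 (-0.08). At day 3, 0 of 11 measured neutrophil genes were higher and 5 lower, between -3.19 (Camp) and 0.78 (Ly6g) with a median of -0.70, while Cxcl2 was still at 1.73. Macrophage genes at day 3 had a median of 0.87, 4 of 10 genes being higher, C1qb highest at 1.49 and Csf1r lowest at -0.20. With ribosomal protein genes at 0, 8 of these 10 were higher (median 1.42), as were 11 of 12 at day 1, and of the neutrophil genes at day 3, 1 was higher and 4 lower. The part of these cells in the Cxcl2 ratio was not tested. In bulk RNA, more cells of a type and more RNA per cell cannot be told apart, and a ratio does not give the level of a marker.

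**Figure D2:**
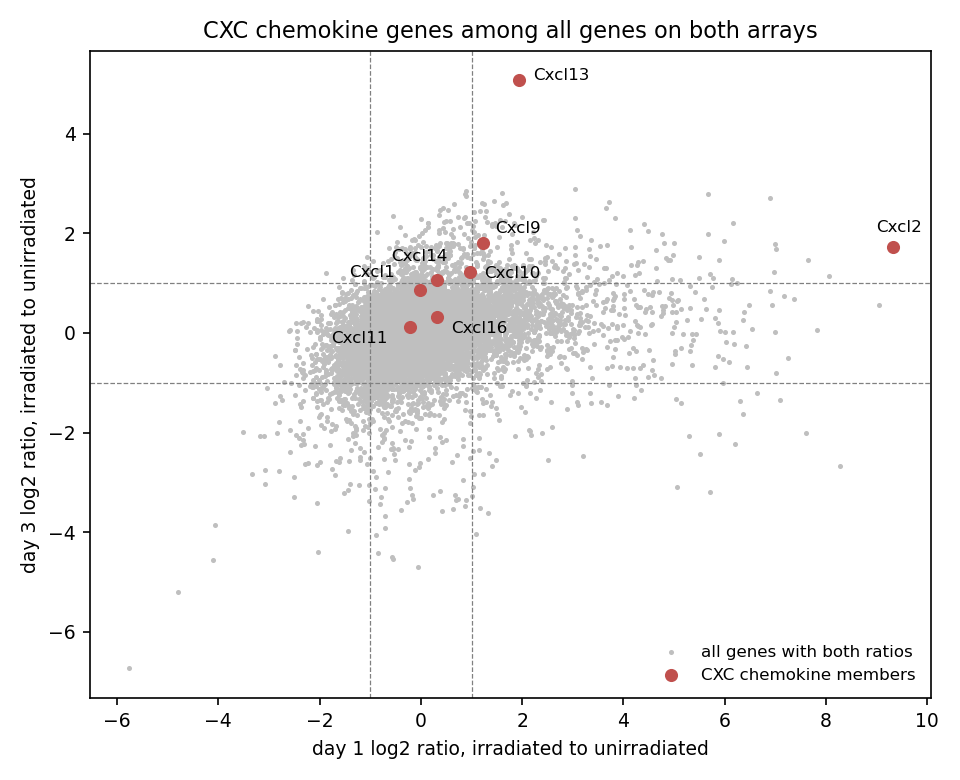
Each point is a gene with a ratio on both arrays, plotted by its day 1 log2 ratio (horizontal axis) and day 3 log2 ratio (vertical axis), with dashed lines at 2-fold and the 8 measured CXC genes in red. Cxcl2 lies at the right edge (9.32 and 1.73) and Cxcl13 at the top (1.94 and 5.07), while Cxcl1, Cxcl11, Cxcl14 and Cxcl16 lie inside the main cloud.

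The interferon-induced ligands had the same order on both arrays, Cxcl9 highest and Cxcl11 lowest. Cxcl9 (MIG), which interferon gamma induces in macrophages and endothelial cells, was at 1.22 at day 1 (2.33-fold, the 84.0th percentile) and 1.79 at day 3 (3.47-fold, rank 144). Cxcl10 (IP-10), which both interferon classes and NF-kB induce, was at 0.97 at day 1, just under 2-fold, and at 1.23 at day 3 (2.34-fold, rank 512). Cxcl11 was at -0.21 at day 1 and 0.13 at day 3, in the middle of all genes, and at 0.27 at day 1 with ribosomal protein genes at 0. Cxcl9 exceeded Cxcl10 by 0.25 at day 1 and 0.57 at day 3, both less than the spread between probes. Cxcl9 exceeded Cxcl11 by 1.43 and 1.67, more than that spread on each array. That spread is for 1 probe value and would be larger for a difference. The day 1 call of Cxcl10 depended on the centring, at 1.13 with the density peak of each array at 0 and 1.45 with ribosomal protein genes at 0. Cxcr3, the receptor of these ligands, had a probe without a ratio on either array.

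Of a list of genes that interferon gamma induces, 10 of 16 were higher at day 1 and 0 lower, with a median of 2.09. The highest were Cd274 (3.35), which encodes the checkpoint ligand PD-L1, the transcription factor Irf8 (3.18) and the guanylate-binding protein gene Gbp7 (2.86). The lowest were Ciita (-0.16), the master regulator of MHC class II genes, and Socs1 (-0.34), an inhibitor of cytokine signalling. At day 3 the list had 6 of 17 higher and 1 lower, with a median of 0.90, led by Gbp6 (2.27), Cd274 (1.87) and Gbp4 (1.76), with Socs1 at -0.33 and Ciita at -1.41. The 2 days differ in the order of list and ligand: Cxcl9 lay below the list's median at day 1 (1.22 against 2.09) and above it at day 3 (1.79 against 0.90). Gbp genes form a family of similar sequences whose probes may not tell members apart. Macrophage markers had medians of 3.86 at day 1 (12 genes) and 0.87 at day 3 (10 genes), not over all the same genes. Their part in these ratios was not tested.

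Cxcl13 was high on both arrays. It stood at 1.94 at day 1 (3.83-fold, rank 849 of 10434) and at 5.07 at day 3 (33.6-fold, rank 1 of 11404). The gene at rank 2 at day 3 was 1700007K13Rik (4.48), so Cxcl13 led by 0.59; this gene carries a clone name and is named here after its value was seen. Among genes with ordinary names, the next were the lipid droplet gene Plin1 (3.27), Ccdc85a (3.03) and Ces2e (2.96), a carboxylesterase. Cxcl14 stood at 0.31 at day 1 and 1.07 at day 3 (2.09-fold, the 93.5th percentile), just past 2-fold. Cxcl16 stood at 0.31 at day 1 and 0.33 at day 3, the member with the most similar values on the 2 arrays, and rests on 1 of its 2 probes because the other had no ratio. Cxcl14 and Cxcl16 differed by 0.003 at day 1 and 0.74 at day 3. The probe spreads were 0.76 and 0.58 for 1 value, and would be larger for a difference.

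The lymphotoxin pathway drives Cxcl13 in lymphoid stroma. A mixed list of genes of that pathway and of lymphoid stroma had a median of 0.05 at day 3, which is not a measure of the pathway alone. Of 12 measured, 2 were higher and 0 lower, where 7.35% of all genes were higher and 6.85% lower. These were the lymphoid survival cytokine Il7 (1.41) and Tnfsf13b (1.30), which encodes the B cell factor BAFF. Relb, a subunit of the alternative NF-kB pathway, was at 0.80, the ligand gene Ltb at -0.49 and the addressin Madcam1 at -0.56. At day 1, 4 of 12 were higher and 1 lower, with a median of 0.36. Tnfsf13b (4.64), Ltb (2.73) and Nfkb2 (1.31) led, and Enpp2 (-0.65) and the RANK ligand gene Tnfsf11 (-1.32) were lowest. Counts became 6 at day 1 and 3 at day 3, with 0 lower on either array, when ribosomal protein genes were set to 0. Lta, Cr2 and Fcer2a had no ratio on either array. Of 4 B cell markers measured at day 3, 0 were higher (1 with ribosomal protein genes at 0) and 2 lower, between -3.34 (Vpreb3) and 0.61 (Ebf1). Endothelial markers were high at day 3, with 12 of 12 higher, between 1.36 (Kdr) and 2.43 (Flt1). At day 1, 4 of these 12 were higher and 0 lower (median 0.48), or 6 higher with ribosomal protein genes at 0. Mesenchymal markers at day 3 had a median of -0.12, with 1 of 13 higher and 2 lower, and ran between -1.50 (Col1a1) and 1.27 (Lepr). That median turned to 0.43, with 2 higher and 0 lower, when ribosomal protein genes set the zero. At day 1 the mesenchymal median was -0.99, with 0 of 12 higher and 6 lower, or 0 lower with ribosomal protein genes at 0. Adipocyte markers at day 3 were higher in 6 of 7, with a median of 2.24, between -0.30 (Cidec) and 3.27 (Plin1). At day 1, 2 of 5 adipocyte markers were higher and 1 lower (median 0.49), or 2 higher and 0 lower with ribosomal protein genes at 0. The part of these cells in the Cxcl13 ratio was not tested.

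**Figure D3:**
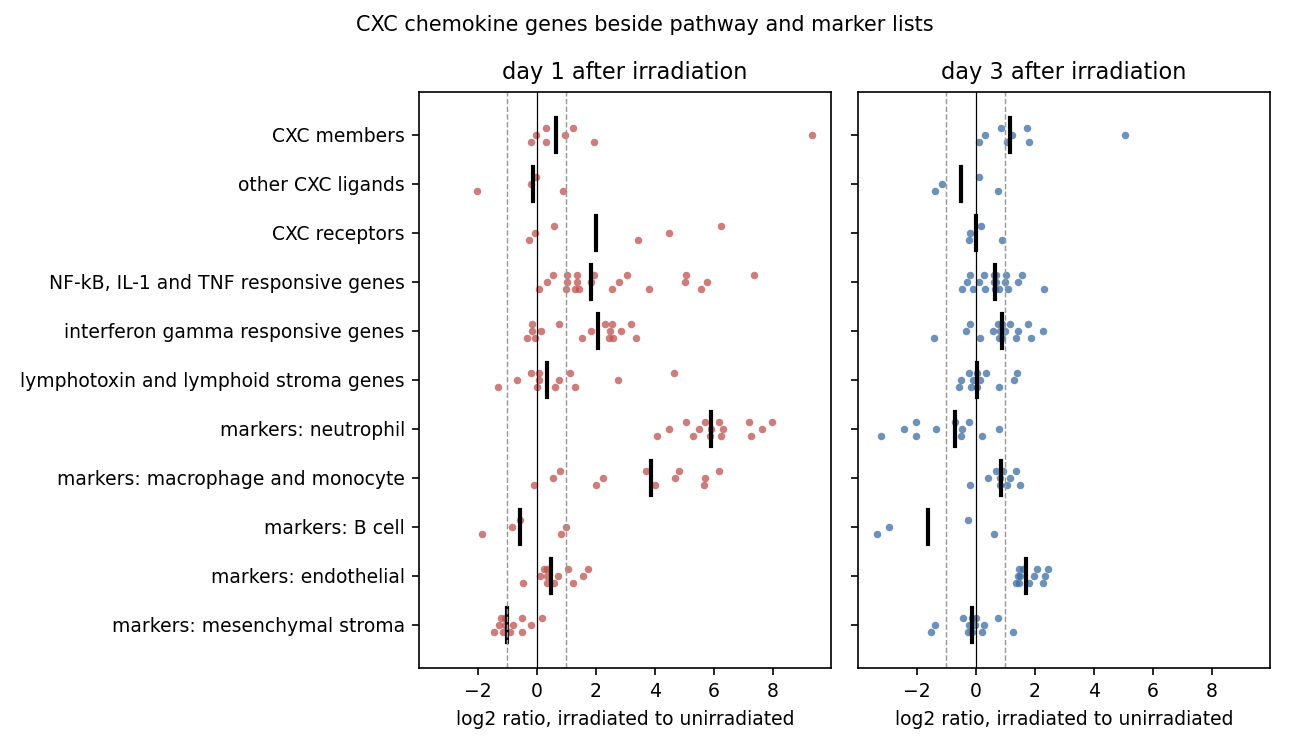
Log2 ratios (irradiated to unirradiated RNA, horizontal axis) of single genes (points) and list medians (black bars) for the CXC members and for pathway and marker lists, day 1 at left and day 3 at right. Neutrophil genes have a median of 5.89 at day 1 (15 genes) and -0.70 at day 3 (11 of these genes). The CXC members have 0.64 and 1.15, over the same 8 genes.

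Of the remaining CXC ligands, 4 were measured, of which 0 were higher on either array, 1 was lower at day 1 and 2 at day 3. With the density peak of each array at 0, 1 was higher at day 1 (Pf4, 1.07), where 23.1% of all genes were. With ribosomal protein genes at 0, 1 was higher and 1 lower at day 1, and 1 higher and 0 lower at day 3. Cxcl12, the stromal ligand of Cxcr4 that keeps stem cells in marrow, was at -0.19 at day 1 and 0.74 at day 3. The platelet chemokine Ppbp was at -2.01 at day 1 and -1.12 at day 3. Pf4, another platelet chemokine, was at 0.90 at day 1 and -1.39 at day 3. Of the megakaryocyte markers, a list that holds both genes, 2 of 6 were higher and 1 lower at day 1, and 0 of 4 higher and 3 lower at day 3. Setting ribosomal protein genes to 0 left 0 of these 4 outside 2-fold at day 3 (median -0.53) and gave 3 higher and 1 lower at day 1. Cxcl15 had no ratio, and no probe was named for Cxcl17.

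Receptors were measured mainly at day 1. Cxcr2, the receptor of Cxcl1, Cxcl2 and Cxcl5, was at 6.23 (75.3-fold, rank 51), and Cxcr1 at 4.49. Cxcr4, found on most leukocytes, was at 3.42 at day 1 and -0.23 at day 3. Cxcr5, the receptor of Cxcl13, was at 0.57 at day 1 and -0.19 at day 3, and at 1.05 and 0.35 with ribosomal protein genes at 0. The scavenging receptors Ackr1 and Ackr3, which bind chemokines without signalling through G proteins, were at -0.05 and -0.27 at day 1, and at 0.88 and 0.20 at day 3. In all, 3 of 6 receptors were higher at day 1 and 0 of 4 at day 3, or 4 (with Cxcr5) and 1 (Ackr1, 1.43) with ribosomal protein genes at 0. Cxcr1 and Cxcr2 had no ratio at day 3, so their course could not be followed, and Cxcr6 had no ratio on either array.

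Genes that IL-1, TNF and NF-kB induce were high beside Cxcl2 at day 1. Of 21 measured, 17 were higher and 0 lower, with a median of 1.82. The highest were the cytokine gene Il1b (7.36) and the macrophage inflammatory proteins Ccl3 (5.76) and Ccl4 (5.56), and the lowest were Sod2 (0.36), the mitochondrial superoxide dismutase, and Relb (0.08). Cxcl1 lay below every gene of this list at day 1. At day 3, 5 of 19 were higher and 0 lower, with a median of 0.64, led by the IL-1 receptor antagonist Il1rn (2.31), the adhesion molecule Icam1 (1.57) and Il6 (1.42). Sod2 (-0.29) and Tnfaip2 (-0.46) were lowest. Cxcl2 at day 3 (1.73) lay between Il1rn and Icam1, and Cxcl1 (0.87) lay above the list's median. Neutrophil markers had a median of 5.89 on the day 1 array, and their part in these ratios was not tested.

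Between the time points the members changed in different ways. Of the 8 genes, 1 was higher at day 3 relative to day 1 and 1 lower, where 12.1% of the 9800 genes with both ratios were higher and 16.8% lower. At 1.5-fold, 3 were higher (Cxcl13, Cxcl1 and Cxcl14), where 23.8% of these genes were. Cxcl13 stood at 5.07 at day 3 against 1.94 at day 1, a difference of 3.13 and the highest of the 9800 genes. Cxcl2 stood at 1.73 at day 3 against 9.32 at day 1, a difference of -7.59 and rank 16 from the bottom. Cxcl13 and Cxcl2, the 1 higher and 1 lower gene, were chosen for the highest value of an array. These ranks and 2-fold counts therefore follow largely from that choice. The other 6 were between 0.02 (Cxcl16) and 0.88 (Cxcl1) higher at day 3, with Cxcl14 at 0.75, Cxcl9 at 0.57, Cxcl11 at 0.34 and Cxcl10 at 0.26. The pooled SD between probes for this difference was 0.73 (77 genes), a spread that leaves out differences between samples. With the gene median at 0, Cxcl1 and Cxcl14 lay above it. With the density peak at 0 they were at 0.67 and 0.55, below it, and with the median over genes on both arrays Cxcl14 was at 0.72, also below. The median over the 8 was 0.46 and the mean -0.20, which have opposite signs because Cxcl2 enters the mean. Both arrays used unirradiated RNA, possibly the same extract, so errors of that RNA would be shared.

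Genes with the most similar pair of ratios were ranked by Euclidean distance over the 2 log2 ratios, among the 9602 genes with ordinary names and both ratios. Cxcl2 and Cxcl13 were chosen for the highest value of an array, so that few genes lie near them follows largely from that choice. The nearest to Cxcl2 were Slfn4 (distance 1.20), the cystatin-like Stfa2l1 (1.40), the chemokine receptor Ccr1 (1.70), Il1b (2.22) and Alox5ap (2.24), which supports leukotriene synthesis. The nearest to Cxcl13 were Ctla2a (2.29), the fatty acid binding protein gene Fabp5 (2.45), Rnf169 (2.46), Trim69 (2.47) and Mmrn2 (2.48), an endothelial matrix gene. With 2 values per gene this likeness carries little information.

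**Figure D4:**
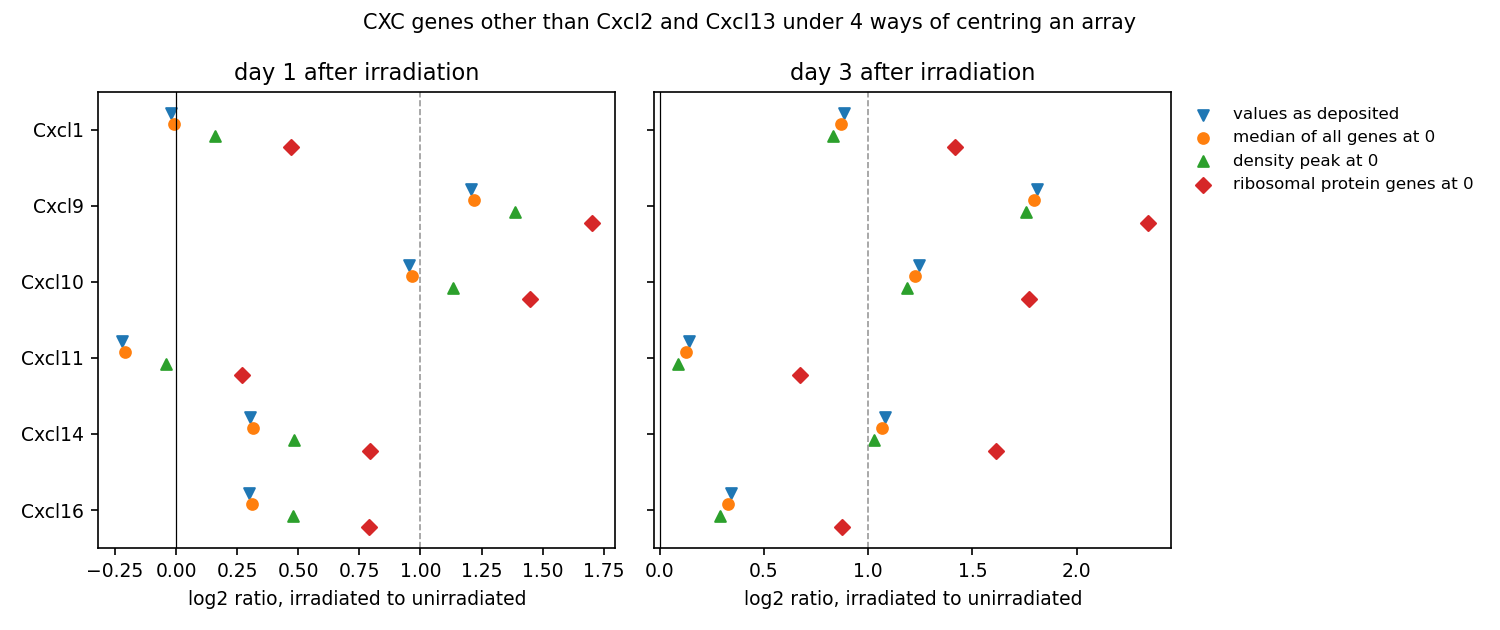
Log2 ratio (irradiated to unirradiated RNA, horizontal axis) of 6 CXC genes under 4 ways of setting each array's zero, day 1 at left and day 3 at right, with the dashed line at 2-fold. Cxcl10 crosses the line at day 1 (0.97 with the gene median at 0, 1.13 with the density peak at 0) and Cxcl1 at day 3 only with ribosomal protein genes at 0 (0.87 against 1.41).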

How the data were processed

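Gene expression was measured on 2 arrays with 2 dye channels each. Per probe, 1 log2 ratio of the channels was deposited; its base is assumed, and background correction, normalisation and the filter behind empty entries are not given in the sources used here. Per the labels, dyes were coupled to amplified amino allyl RNA. The deposited medians lay near 0, as those of centred values would, and the step behind this is not given. Empty entries made up 40.5% of the 23473 probes at day 1 and 34.3% at day 3. A single symbol was annotated for 16631 probes and no symbol for 6842. RefSeq genes (GRCm38.p6) gave the current symbol, directly for 12622 probes and by an older name for 3947, and 62 kept theirs. Probes of a gene were averaged and each array's gene median subtracted, a shift of 0.0119 (day 1) and -0.0162 (day 3). Calls used 2-fold, with no test.

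The members, the lists and the rule for named genes were chosen with earlier results of these data known. Named genes are all members and other CXC ligands and receptors, the 3 highest and 2 lowest of each pathway list, the highest and lowest of each marker list, the 5 nearest genes to Cxcl2 and Cxcl13 and the 3 ranked next below each. Names of clones, predicted genes and accessions were passed over. Alternatives were the centring, the genes that set it, the choice of probe, the fold and the mean over members. The averaging, centring and call rule were run on simulated ratios with planted shifts larger than the threshold. That run checks the code only, and not the sign, the dyes or the spread of these arrays. After matches were seen, 2 promoter motifs were shortened to 9 letters so that they could be printed, and a looser kB-like motif was left out. Other kB-like letters, such as those in the Cxcl10 and Cxcl13 stretches, were therefore not counted. Protein sequences were not used here. Python 3.11.15, pandas 2.3.3, numpy 2.4.6 and scipy 1.17.1 were used.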

Additional observations from a re-analysis of the deposited data

Results flagged for a closer look

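A group here is 1 array, so a gene whose ratios lie on opposite sides of 0 on the 2 arrays is listed without a test, and several of these values are close to 0. Cxcr4 (day 3 minus day 1 difference of log2 ratios -3.65) and Pf4 (-2.29) were above 0 at day 1 and below 0 at day 3, and these 2 differences exceeded 2-fold. Cxcr5 (-0.77) ran the same way within 2-fold. Cxcl12 (0.93), Ackr1 (0.93), Cxcl1 (0.88), Ackr3 (0.47), Cxcl11 (0.34) and Cxcl3 (0.14) were below 0 at day 1 and above 0 at day 3, all within 2-fold. With ribosomal protein genes at 0, 1 of these 9 genes (Pf4) still lay on opposite sides, and with the density peak at 0, 6 did (Cxcl11, Pf4, Cxcl12, Cxcr4, Cxcr5 and Ackr3). The difference between time points was not tested for any of them.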

How the results depend on the processing

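Of 24 member values (8 genes, 3 contrasts), 0 calls changed with the values as deposited or with the probe of the largest ratio. Cxcl10 at day 1 passed 2-fold with the density peak at 0 (1.13), ribosomal protein genes at 0 (1.45) or the median over genes on both arrays (1.02), and Cxcl1 at day 3 passed with ribosomal protein genes at 0 (1.41). Cxcl1 at day 1 changed sign under each of these 3 centrings, Cxcl11 at day 1 with ribosomal protein genes at 0, and Cxcl16 between the days with the density peak or the genes on both arrays. At 4-fold, 1 member was higher at day 1 (Cxcl2, 7.7% of all genes) and 1 at day 3 (Cxcl13, 0.824%). The set was chosen for the values of these genes on those arrays, so these counts follow largely from that choice. At 1.5-fold, 3 were higher at day 3 relative to day 1 (23.8% of all genes). The mean over members at day 1 was 1.73 against a median of 0.64. Ribosomal protein genes at 0 shifted all genes by 0.48 at day 1 and 0.55 at day 3, and the density peak by 0.17 and -0.04. Among all genes past 2-fold at day 1, 63.9% were higher, or 74.7% (density peak) and 88.8% (ribosomal, with 3239 higher against 2047 and 408 lower against 1157). At day 3 the share was 51.8%, or 90.7% with ribosomal protein genes at 0 (2665 higher against 838, 273 lower against 781). Between the days it was 41.8%, or 27.2% with the density peak (776 higher against 1182). With ribosomal protein genes at 0, 12 of 19 NF-kB genes and 13 of 17 interferon gamma genes were higher at day 3, against 5 and 6. The 1 lower gene of the interferon gamma list (day 3) and of the lymphotoxin list (day 1) no longer passed 2-fold. At day 1 that zero gave 19 of 21 NF-kB genes and 11 of 16 interferon gamma genes higher, against 17 and 10. It gave 15 of 22 mitotic genes higher at day 1, against 10. No paired analysis was possible because each group is 1 array. With 1 array per time point, the number of arrays limits the precision, and signal over background is unknown.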

Other observations

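Transcripts of proteins that cut, bind or present CXC chemokines were measured on both arrays, and the values below are RNA ratios. At day 1 the neutrophil collagenase Mmp8 was at 7.25 and the gelatinase Mmp9 at 5.66, both enzymes of neutrophil granules that trim CXC ligands, and these were the 2 of 8 genes past 2-fold upward. Adam10, a protease that sheds Cxcl16, was at 0.93, and the syndecans Sdc1 (-0.73) and Sdc4 (-1.17), cell surface proteoglycans, were lowest. At day 3, Mmp9 (1.99) was the 1 gene of 8 at least 2-fold higher, Sdc1 was at 0.48 and Adam10 at 0.47, and Sdc3 (-0.60) and Dpp4 (-0.61), a peptidase that inactivates Cxcl10 and Cxcl12, were lowest. With ribosomal protein genes at 0, 3 of the 8 were higher and 0 lower on each array. Mmp8 is also one of the neutrophil markers, whose median was 5.89 at day 1 and -0.70 at day 3, and the part of those cells was not tested.

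Markers of the cells that carry Cxcr3 and Cxcr5 were sparse. Of T and NK cell markers, 4 had a ratio at day 1 and 6 at day 3. At day 1, 3 of the 4 were 2-fold or more higher, Nkg7 leading at 3.64 and Cd28 lowest at -0.81. At day 3, 0 were outside 2-fold, with Cd8a highest at 0.78 and Cd247 lowest at -0.83, and with ribosomal protein genes at 0, 2 of the 6 were higher (median 0.84). Of 5 B cell markers at day 1, 0 were at least 2-fold higher and 1 lower, Ms4a1 being highest at 0.98 and Vpreb1 lowest at -1.86, and 2 were higher with ribosomal protein genes at 0. Erythroid markers were at least 2-fold lower in 6 of 7 genes at day 1 and 8 of 8 at day 3 (6 of 8 with ribosomal protein genes at 0). Car2 was lowest at -5.77 and -6.73, and Tfrc at day 1 (-0.68) and Alas2 at day 3 (-1.14) were highest.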
